A study of Mus musculus with 12 samples.

Results

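Fibril-associated and transmembrane collagens are 2 of the collagen families that do not build fibrils themselves. The expression of 7 of their genes was examined in mouse C2C12 myotubes, of 55487 genes counted in all. Col12a1, Col14a1, Col16a1 and Col22a1 encode fibril-associated chains, and Col13a1, Col23a1 and Col25a1 encode transmembrane chains. The genes were chosen by collagen family and by their read counts in the comparison of STEM with horse serum, whose results were already known. The levels and fold changes of these 7 genes between the media are therefore given as a description. Whether the test over all genes called them is stated below, but it is no support for a difference.

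C2C12 is a myoblast cell line that fuses into multinucleated myotubes when serum is lowered. All cultures first spent 5 days in 2% horse serum to differentiate, and medium with either 4% horse serum (the control, libraries 1 to 6) or 4% STEM (libraries 7 to 12) was then applied for 24 h. STEM is the cell-free product that partially differentiated human pluripotent stem cells secrete, and it took the place of horse serum, so that the presence of STEM and the absence of horse serum cannot be told apart. The labels do not say whether the 6 libraries of a group came from separate cultures, and a p-value measures only the spread between these libraries. The counts per library summed to between 13285472 and 18254882 with horse serum and to between 14909485 and 24536264 with STEM. Levels are given as CPM, read counts scaled to a common normalized library total. In bulk RNA, fewer cells of a type and less RNA per cell cannot be told apart.

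Fibril-associated collagens carry triple helices broken by other sequence and lie on the surface of collagen I fibrils, where they link the fibrils to one another and to proteoglycans and glycoproteins. Transmembrane collagens cross the plasma membrane once, with a short tail in the cell and a long collagenous ectodomain outside, which proteases such as furin can release. In muscle, collagen XII and collagen XIV belong to the connective tissue between fibers, collagen XXII to the myotendinous junction, collagen XIII to the neuromuscular junction, and collagen XXV is needed for motor axons to enter developing muscle.

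The labels of the 2 families were checked against the coding sequences. In the longest annotated coding sequence of each gene, collagen repeats (glycine-led triplets, at least 5 in a row) made up 70.6% of the 739 residues of Col13a1, 69.4% of the 532 residues of Col23a1 and 71.2% of the 666 residues of Col25a1. The share was 62.1% of 1580 residues for Col16a1 and 63.2% of 1613 for Col22a1, but 13.8% of 1798 for Col14a1 and 8.1% of 3065 for Col12a1, which are mostly made of other domains. The most hydrophobic window of 19 residues had a mean hydropathy (Kyte-Doolittle scale) of 2.25 in Col13a1, starting at residue 41, of 2.32 in Col23a1, starting at residue 25, and of 2.32 in Col25a1, starting at residue 36. In the fibril-associated genes the highest window reached 1.97 in Col14a1, starting at residue 12, and between 1.28 and 1.61 in the other 3. The 3 highest windows were thus those of the 3 genes listed as transmembrane, but Col14a1 also had a hydrophobic window at the amino end. Among windows that start past residue 30, the highest of Col23a1 (1.71) was close to that of Col22a1 (1.61). That cut leaves out the highest window of Col23a1, which starts at residue 25. The measure alone does not separate the families sharply.

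The bases before the RefSeq transcription start of the transmembrane genes are shown because these genes share a protein architecture while their values below differ. RefSeq windows (GRCm38.p6) matched 4 of the 7 genes, and the 250 bases before the start are printed for the 3 transmembrane genes, 5′ to 3′ on the strand of the gene. Capitals mark matches, on either strand, to the E-box CANNTG, the GC box GGGCGG and the TATA box TATAAA. The windows are chr11:51289670-51289919 on the plus strand for Col23a1, chr10:61979109-61979358 on the minus strand for Col13a1 and chr3:130180595-130180844 on the plus strand for Col25a1. The first 2 windows adjoin the annotated gene starts, while that of Col25a1 precedes a RefSeq start that lies inside the annotated gene.
Col23a1: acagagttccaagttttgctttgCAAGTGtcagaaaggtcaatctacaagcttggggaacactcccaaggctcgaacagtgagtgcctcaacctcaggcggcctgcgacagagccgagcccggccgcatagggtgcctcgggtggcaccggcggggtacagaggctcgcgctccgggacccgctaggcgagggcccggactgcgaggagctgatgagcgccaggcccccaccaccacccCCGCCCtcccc
Col13a1: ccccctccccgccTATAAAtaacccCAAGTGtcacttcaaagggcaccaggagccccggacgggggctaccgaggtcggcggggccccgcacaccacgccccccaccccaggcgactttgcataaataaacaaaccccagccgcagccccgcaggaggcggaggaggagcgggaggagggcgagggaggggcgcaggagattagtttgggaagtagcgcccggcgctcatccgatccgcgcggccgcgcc
Col25a1: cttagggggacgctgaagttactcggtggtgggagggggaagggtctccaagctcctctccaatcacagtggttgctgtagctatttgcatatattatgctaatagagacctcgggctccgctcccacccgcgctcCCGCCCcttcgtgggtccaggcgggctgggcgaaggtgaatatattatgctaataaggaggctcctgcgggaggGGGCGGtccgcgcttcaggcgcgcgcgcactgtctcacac
The Col23a1 window held 1 E-box at base -227 and 1 GC box at base -11, counted from the start. The Col13a1 window held 1 E-box at -225 and a TATA box at -237 that overlapped its only match to the MEF2 motif, and the Col25a1 window held 2 GC boxes and no E-box. Of 32851 RefSeq windows of this length, 66.2% held an E-box, 32.7% a GC box, 12.4% a TATA box and 2.92% a MEF2 match. The AP-1 motif TGANTCA (6.75% of windows) and the SMAD motif CAGAC (42.2%) had no match in any of the 3 windows. The metal response core TGCNCNC (44.4%) matched once in Col13a1 and once in Col25a1. The GC content was 66.0%, 68.8% and 60.4% in the windows of Col23a1, Col13a1 and Col25a1. A match describes letters in the window and not a bound site.

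A filter on low counts left 14175 genes to test, and the quasi-likelihood test of edgeR (Benjamini-Hochberg adjusted over all of them, threshold 0.05) called 36.4% between the media, 18.9% higher and 17.4% lower with STEM. For 17.2% of the tested genes the libraries of the 2 groups did not overlap in CPM. Of the 7 collagen genes, 6 passed the filter and Col22a1 did not. Among these 6 genes 1 was called higher, 2 were called lower and 3 were not called, and the 3 called genes were also those without overlap, which is given as a description since the genes were chosen with this comparison known.

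**Figure D1:**
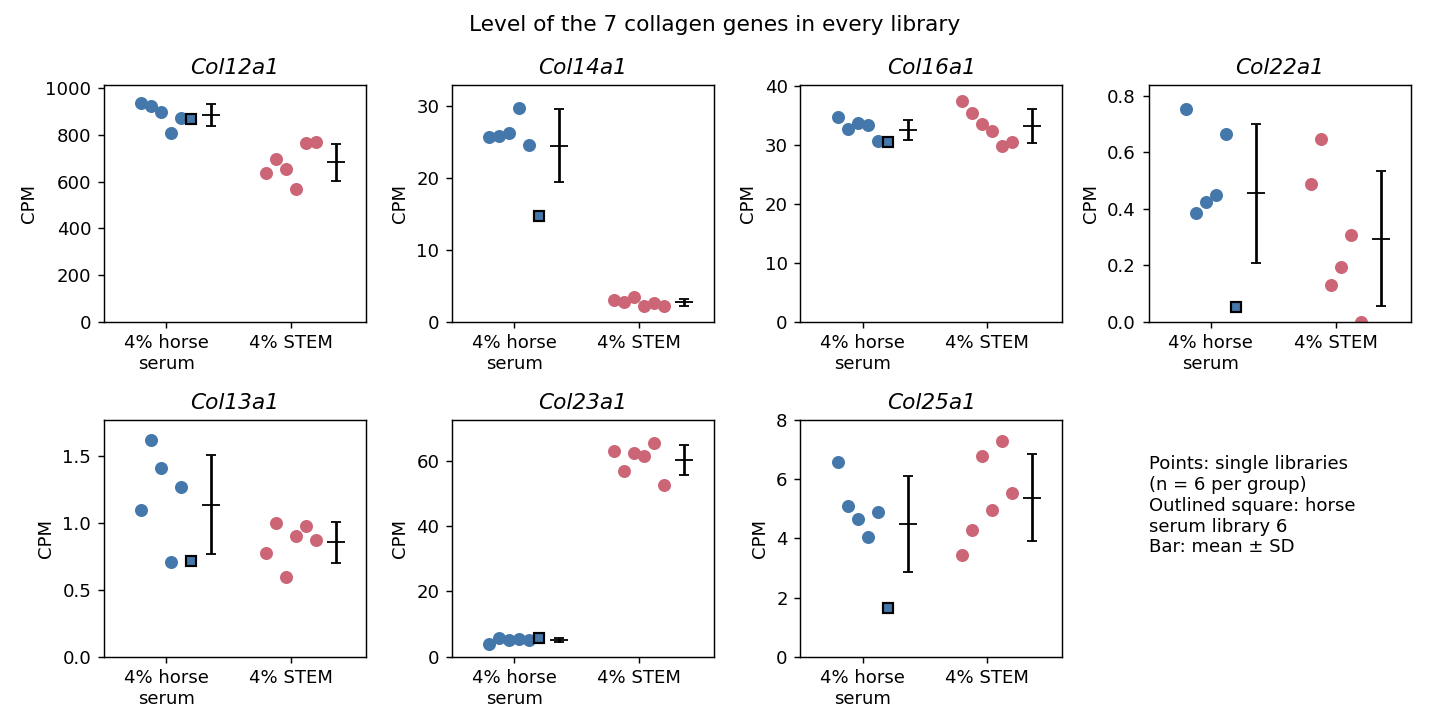
CPM (vertical axes, linear, from 0) of each of the 7 genes in the 6 libraries with 4% horse serum (blue) and the 6 with 4% STEM (red), with the mean ± SD in black and horse serum library 6 as an outlined square. The groups are apart for Col23a1, Col14a1 and Col12a1, and they overlap for the other 4 genes.

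Col12a1 (ENSMUSG00000032332, GRCm38 chromosome 9, 79598991 to 79718831, minus strand) encodes the chain of collagen XII, a long fibril-associated collagen with many fibronectin-type domains. With horse serum its level was 937, 925, 896, 806, 872 and 867 CPM in libraries 1 to 6. With STEM it was 638, 696, 652, 569, 767 and 771 CPM in libraries 7 to 12. The lowest control library thus lay above the highest STEM library, and library 10 was the lowest of all. The horse serum mean of 884 ± 47.3 CPM was 1.3 times the STEM mean of 682 ± 78.6 CPM (SD, n = 6), and the fitted log2 difference was -0.37 with a standard error of 0.071. It was the smallest of the 3 changes without overlap, on the gene of the 7 with the most reads (8817 to 16918 counts per library).

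Col14a1 (ENSMUSG00000022371, chromosome 15, 55307750 to 55520803, plus strand) encodes collagen XIV, the fibril-associated collagen closest to XII in its domains. Its level was 25.7, 25.8, 26.3, 29.7, 24.6 and 14.8 CPM in horse serum libraries 1 to 6. It was 3.06, 2.83, 3.49, 2.26, 2.63 and 2.22 CPM in STEM libraries 7 to 12. Every STEM library was far below every control library, and library 6 was the lowest control. The level with horse serum was 8.91 times that with STEM (24.5 ± 5.07 against 2.75 ± 0.49 CPM, SD, n = 6), and the fitted log2 difference was -3.14 with a standard error of 0.16. Without library 6 the control mean was 26.4 ± 1.93 CPM and the log2 fold change -3.25.

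Col16a1 (ENSMUSG00000040690, chromosome 4, 130047840 to 130099283, plus strand) encodes collagen XVI, a fibril-associated chain with many short collagen blocks that also binds integrins. Its level was 34.8, 32.8, 33.8, 33.4, 30.7 and 30.6 CPM with horse serum and 37.6, 35.5, 33.5, 32.5, 29.9 and 30.5 CPM with STEM. The groups overlapped, with 2 STEM libraries above and 2 below all controls. The means were 32.7 ± 1.70 and 33.2 ± 2.93 CPM (SD, n = 6), and the log2 fold change of 0.03 (standard error 0.064) was smaller than its error.

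Col22a1 (ENSMUSG00000079022, chromosome 15, 71795795 to 72034227, minus strand) encodes collagen XXII, the fibril-associated collagen of the myotendinous junction. It had 11, 5, 6, 7, 11 and 1 counts in horse serum libraries 1 to 6 and 12, 11, 2, 3, 5 and 0 counts in STEM libraries 7 to 12, and it did not pass the filter on low counts. Its mean level was 0.45 ± 0.25 CPM in the control and 0.29 ± 0.24 CPM in STEM libraries (SD, n = 6), and libraries of both groups held 3 counts or fewer, the limit that a count of 0 allows. The groups overlapped, and no difference is read from these counts. The antisense gene Gm16308 shares 16 exon bases with Col22a1, while no other of the 7 genes shares exon bases with a neighbor.

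Col23a1 (ENSMUSG00000063564, chromosome 11, 51289920 to 51583918, plus strand) encodes collagen XXIII, a transmembrane collagen that is shed by furin and binds integrin α2β1. Its level was 3.84, 5.63, 5.01, 5.4, 5.19 and 5.79 CPM with horse serum. With STEM it was 63.1, 57.1, 62.6, 61.6, 65.6 and 52.8 CPM. Each STEM library was far above every control, and the 2 groups were each tight. The mean with STEM was 11.8 times that with horse serum (60.5 ± 4.66 against 5.14 ± 0.70 CPM, SD, n = 6), and the fitted log2 difference was 3.55 with a standard error of 0.089. By absolute log2 fold change Col23a1 ranked 3 and Col14a1 ranked 8 of the 14175 tested genes, and 9 genes in all reached an absolute value of 3.

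Col13a1 (ENSMUSG00000058806, chromosome 10, 61838236 to 61979108, minus strand) encodes collagen XIII, the transmembrane collagen that helps to stabilize the neuromuscular junction. It was low, with 9 to 21 counts per library. The level was 1.10, 1.62, 1.41, 0.71, 1.27 and 0.72 CPM with horse serum and 0.77, 1.0, 0.59, 0.90, 0.98 and 0.88 CPM with STEM. The groups overlapped, and the control libraries spread more widely than the STEM libraries. The log2 fold change was -0.39 with a standard error of 0.24.

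Col25a1 (ENSMUSG00000058897, chromosome 3, 130131501 to 130599877, plus strand) encodes collagen XXV, the transmembrane collagen that myofibers need to be innervated. Its level was 6.58, 5.09, 4.66, 4.05, 4.89 and 1.64 CPM with horse serum and 3.43, 4.30, 6.77, 4.97, 7.28 and 5.52 CPM with STEM. The groups overlapped, and horse serum library 6 lay below all other libraries. The log2 fold change of 0.27 (standard error 0.27) was 0.07 without library 6 and 0.41 without library 1.

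**Figure D2:**
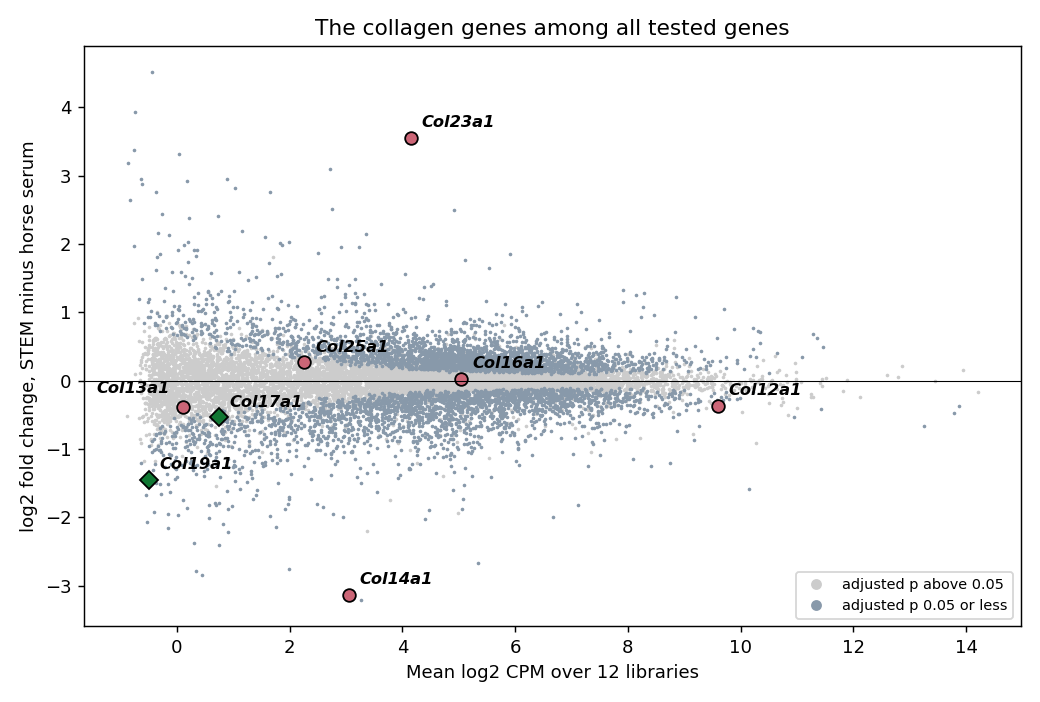
Log2 fold change (STEM minus horse serum) against mean log2 CPM for the 14175 tested genes, with the 6 tested genes of the 7 as red circles and Col17a1 and Col19a1 as green diamonds. Col23a1 (3.55) and Col14a1 (-3.14) lie at the upper and lower edge of the cloud for their level, while Col16a1 (0.03) lies at its center.

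Per exon length the 7 genes covered a wide range. In horse serum Col12a1 was the highest at 58.0 ± 3.10 CPM per kilobase (SD, n = 6), followed by Col16a1 (4.84 ± 0.25), Col14a1 (3.49 ± 0.72), Col23a1 (0.90 ± 0.12), Col25a1 (0.35 ± 0.13), Col13a1 (0.25 ± 0.081) and Col22a1 (0.049 ± 0.027). The ranges of neighbors in this order did not overlap, except those of Col25a1 (0.127 to 0.508) and Col13a1 (0.154 to 0.352). With STEM the order was Col12a1 (44.8 ± 5.16), Col23a1 (10.5 ± 0.81), Col16a1 (4.93 ± 0.44), Col25a1 (0.42 ± 0.11), Col14a1 (0.39 ± 0.069), Col13a1 (0.19 ± 0.033) and Col22a1 (0.032 ± 0.026). Col25a1 (0.265 to 0.563) and Col14a1 (0.317 to 0.497) overlapped in these libraries. Col23a1 went from place 4 to place 2 in this order and Col14a1 from place 3 to place 5.

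**Figure D3:**
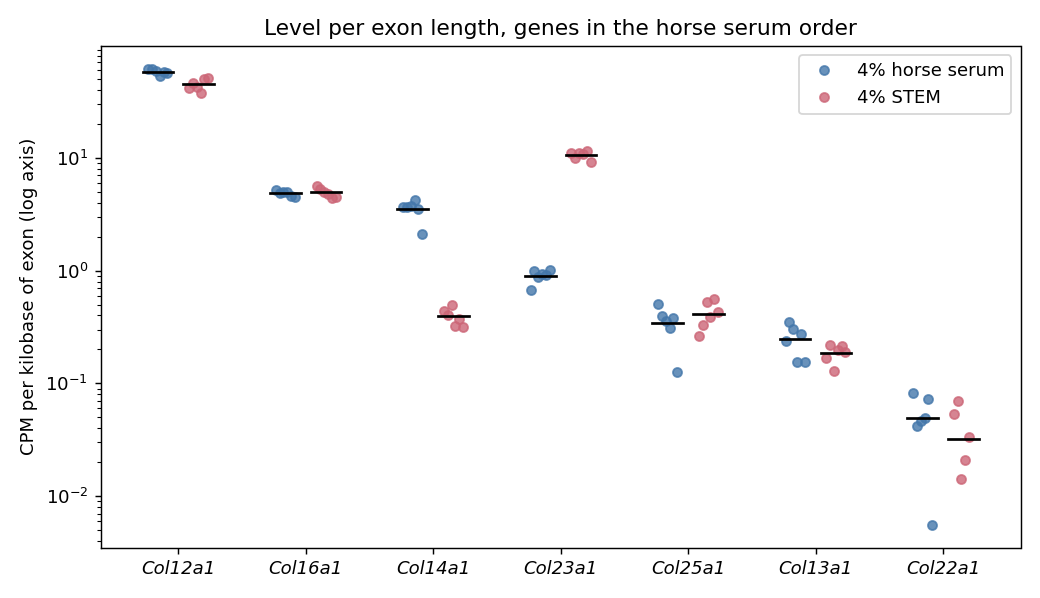
CPM per kilobase of exon (log axis) of the 7 genes in each library with 4% horse serum (blue) and 4% STEM (red), with the group mean as a black line and the genes in their horse serum order. Col22a1 in STEM library 12 is at 0 and has no point. The change of place of Col23a1 and Col14a1 is seen against the near-constant Col16a1.

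Summed over the 3 transmembrane genes, the level went from 10.8 ± 1.46 CPM in the control to 66.7 ± 5.23 CPM in the STEM libraries (SD, n = 6). Col23a1 made up 49.0% of the horse serum sum, between 33.3% in library 1 and 71.1% in library 6, and 90.7% of the STEM sum, between 88.8% and 93.8%. Summed over the 4 fibril-associated genes, it went from 941 ± 47.9 to 718 ± 77.0 CPM. Nearly all of this sum was Col12a1, which held 92.8% of the reads of the 7 genes with horse serum and 86.8% with STEM. The sum of the fibril-associated genes was between 870 and 999 CPM in the control libraries and between 604 and 804 CPM in the STEM libraries, with no overlap.

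**Figure D4:**
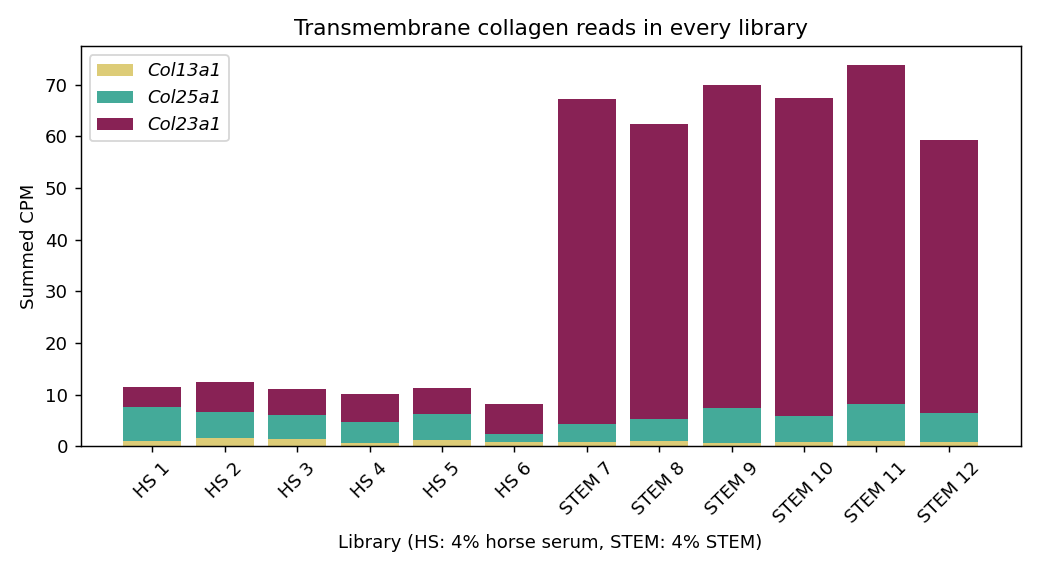
Summed CPM of the 3 transmembrane genes in each of the 12 libraries, stacked by gene, on an axis from 0. The sum is between 8.15 and 12.4 CPM in the horse serum libraries and between 59.2 and 73.8 CPM in the STEM libraries, and the added part is Col23a1.

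The spread between libraries was set beside the error from counting alone. For Col12a1 the coefficient of variation was 5.35% with horse serum and 11.5% with STEM, against 0.85% and 0.93% from counting. For Col23a1 it was 13.6% against 11.1% from counting with horse serum, and 7.70% against 3.09% with STEM. For Col13a1 it was 32.6% against 24.1% with horse serum and 17.8% against 26.1% with STEM, so that counting error alone was of the size of the spread. For Col25a1 the spread with horse serum was 36.3%, and 18.6% without library 6, against 12.2% from counting.

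The 3 tested genes whose log2 CPM correlated most with each collagen gene over the 12 libraries were listed as a description, with no p. For Col23a1 these were Gadd45g (Pearson's r 0.995), Timp3 (0.992) and Gadd45b (0.990), and for Col14a1 they were Ackr3 (0.992), Jade1 (0.990) and Mt1 (0.990). For Col12a1 they were Srgap3 (0.984), 3110039I08Rik (0.972) and Tsc22d2 (0.971). The 12 points of each correlation share the division of the libraries by medium. The correlations were lower for Col13a1 (6430550D23Rik 0.912, Lysmd3 0.854, Abhd6 0.842), Col25a1 (Gm6316 0.912, Uqcrq 0.905, Kif19a 0.901) and Col16a1 (Ppp2r5a 0.881, Ptrhd1 0.877, Nxn 0.871).

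Other collagens of the 2 families were low in these cells. Of the 6 genes, 2 passed the filter, and both were called lower with STEM, as were 17.4% of all tested genes. Col19a1, a fibril-associated collagen of developing muscle and brain, was at 1.51, 0.77, 1.84, 0.77, 0.97 and 0.41 CPM with horse serum and at 0.33, 0.24, 0.26, 0.26, 0.37 and 0.81 CPM with STEM. Apart from STEM library 12, the STEM libraries lay below all controls, on 4 to 26 counts per library. It fell by 1.45 on the log2 scale (standard error 0.39, adjusted p = 0.0095 in edgeR). With 8 to 26 counts in horse serum and 4 to 12 in STEM libraries, it passed the filter mainly through the group where it was high. The number of these collagens called lower is therefore a description beside the share over all tested genes. Col17a1, the transmembrane collagen of hemidesmosomes, went from 1.87 ± 0.33 to 1.30 ± 0.18 CPM (SD, n = 6), or by -0.54 on the log2 scale (standard error 0.16, edgeR adjusted p = 0.0178), with 5 of 6 STEM libraries below every control. Without the filter on low counts the adjusted p of Col17a1 was 0.063. Col9a1 and Col9a2, chains of the cartilage collagen IX, had at most 1 count in any library, Col9a3 had 1 to 6 and Col20a1 2 to 21 counts per library. Other membrane proteins with a collagen domain were tested for 3 of 7 genes, of which 2 were called lower (17.4% over all tested genes). The scavenger receptors Colec12 (246 ± 25.5 to 190 ± 8.66 CPM, adjusted p = 0.000324) and Scara5 (10.8 ± 2.04 to 6.74 ± 1.15 CPM, adjusted p = 0.00153) fell with STEM without overlap, and Scara3 was not called (adjusted p = 0.482, all from edgeR). Without horse serum library 6 Scara3 was called higher (log2 fold change 0.19, adjusted p = 0.0411).

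The fibrils and the proteins on their surface were examined next. Of 10 tested fibrillar collagen chains, 5 were called, all of them higher with STEM (18.9% of all tested genes were called higher), with a median log2 fold change of 0.50 against 0.01 over all tested genes. The lowest p-values were those of Col5a3 (log2 fold change 0.58, standard error 0.067, adjusted p = 1.72e-05) and Col5a1 (0.71, 0.099, adjusted p = 7.58e-05), chains of the collagen V that sets fibril diameter, and of the rare chain Col24a1 (1.24, 0.19, adjusted p = 0.000177 in edgeR). Of 9 tested fibril-surface partners, which include the proteoglycans and glycoproteins that bind collagen XII or XIV, 6 were called higher and 1 lower (median log2 fold change 0.63). Over all tested genes, 18.9% were called higher and 17.4% lower. Without the filter on low counts, 5 of 13 partners were called higher and 0 lower, where 2308 of all 29620 genes were called higher and 2340 lower. Fmod, a proteoglycan that binds fibrils, went from 4.87 ± 1.44 to 21.8 ± 4.42 CPM (adjusted p = 1.01e-06). The tenascin gene Tnc went from 990 ± 163 to 1646 ± 152 CPM (adjusted p = 4.91e-05), and the biglycan gene Bgn from 446 ± 48.9 to 613 ± 78.1 CPM (SD, n = 6, adjusted p = 0.000798, edgeR). For Bgn the groups overlapped, with horse serum library 6 (540.2 CPM) above STEM library 10 (530.8 CPM). Col12a1 and Col14a1 thus lay on the other side of 0 from most tested genes of these lists. The partner called lower (log2 fold change -0.40, adjusted p = 0.0152 in edgeR) and the tested but uncalled partners (-0.28 and -0.13) lay on their side. The fibrillar chain with the most reads was not called (0.09, adjusted p = 0.278 in edgeR). Tnxb, Thbs4, Lum and Comp, which are partners in tendon and skin, did not pass the filter, with at most 11 counts in any library.

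Of 9 tested collagen receptors, 4 were called higher and 3 lower (median log2 fold change -0.09), where 18.9% and 17.4% of all tested genes were called higher and lower. The receptor phosphatase gene Ptprd, whose product binds collagen XXV, went from 102 ± 3.72 to 63.3 ± 3.13 CPM (SD, n = 6, log2 fold change -0.69, standard error 0.044, adjusted p = 7.47e-08 in edgeR). Its paralog Ptprs, another receptor of collagen XXV that was picked out once its values were known, was called higher, from 174 ± 5.57 to 206 ± 19.6 CPM (0.25, standard error 0.058, adjusted p = 0.00396 in edgeR). For Col25a1 itself the groups overlapped, as given above. The collagen receptor kinase gene Ddr1 was called higher (0.49, adjusted p = 2.58e-06) and Mrc2, the gene of a receptor that takes up collagen, lower (-0.47, adjusted p = 5.38e-06, both edgeR). Itga2, the integrin chain that binds collagen XXIII, had at most 5 counts in any library and was not tested. Itga11, the chain of a fibroblast collagen receptor, likewise picked out once its values were known, went from 25.3 ± 4.19 to 45.6 ± 8.98 CPM (SD, n = 6, adjusted p = 0.000272 in edgeR).

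Of 6 tested genes of ectodomain sheddases, 3 were called, all higher with STEM and all of them proprotein convertases (median of the list 0.13), against 18.9% called higher over all tested genes. Furin, which releases the ectodomains of collagen XXIII and collagen XXV, went from 44.5 ± 11.3 to 67.5 ± 9.27 CPM (SD, n = 6, log2 fold change 0.60, standard error 0.14, adjusted p = 0.00562 in edgeR). Its level in horse serum library 6 was 66.1 CPM, within the range of the STEM libraries. Pcsk6 went from 2.84 ± 0.31 to 5.00 ± 0.51 CPM without overlap (adjusted p = 6.08e-05), and Pcsk7 from 40.1 ± 5.76 to 46.5 ± 1.24 CPM (adjusted p = 0.0414). The call of Pcsk7 was lost when any of the libraries 1, 2, 3, 4, 5, 7, 9, 10, 11 or 12 was left out (adjusted p between 0.0596 and 0.0942). With scaling by total counts only it was also lost (adjusted p = 0.0796 in edgeR), which left 2 called genes of this list. Adam10, Adam17 and Adam9 were not called.

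Junction genes were examined because collagens XIII, XXII and XXV act at the junctions of myofibers with nerve and tendon. Of 12 neuromuscular junction genes, 4 were called, 3 higher and 1 lower, with a median log2 fold change of 0.00, a share near the 36.4% called over all tested genes. Chrng, the fetal subunit of the acetylcholine receptor, was lower (-0.26, standard error 0.056, adjusted p = 0.00236), while the agrin receptor gene Lrp4 (0.27, standard error 0.068, adjusted p = 0.00648) and the receptor subunit gene Chrnb1 (0.19, standard error 0.062, adjusted p = 0.0225, edgeR) were higher. The number called was 7 without horse serum library 6, where 7245 of all 14267 tested genes were called. It was 2 without library 1, 10 or 11, where 4473 of 14289, 4746 of 14307 and 4501 of 14267 tested genes were called. The call of Chrnb1 was lost without library 1, 7, 10 or 11 (adjusted p from 0.0524 to 0.0556). Of 10 myotendinous junction genes, 1 was called higher and 3 lower (median -0.09), again near the 36.4% called over all tested genes. Itga7 (-0.26, standard error 0.045, adjusted p = 0.000414) and Vcl (-0.25, standard error 0.049, adjusted p = 0.000995), the genes of the laminin receptor chain of muscle and of vinculin, fell without overlap, and the talin gene Tln2 was higher (0.24, standard error 0.064, adjusted p = 0.00878, edgeR). The number called was 7 without library 6, with 2 higher and 5 lower, where 3746 of all 14267 tested genes were called higher and 3499 lower.

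**Figure D5:**
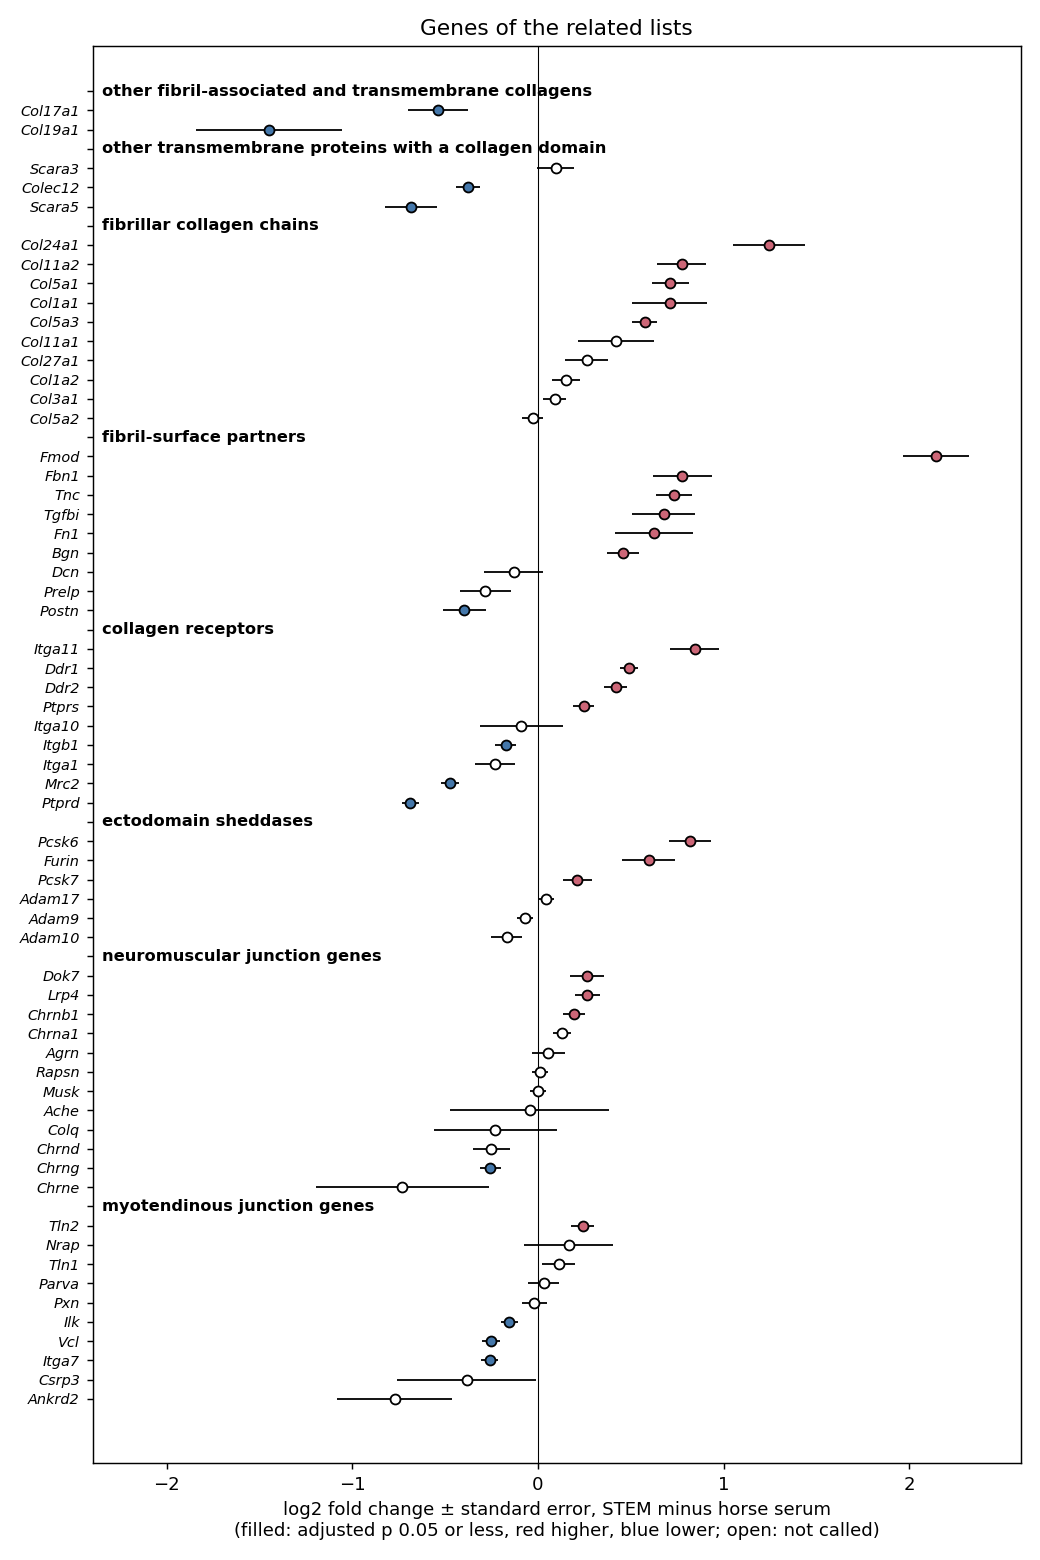
Log2 fold change ± standard error (STEM minus horse serum, edgeR) of each tested gene of the 8 related lists, filled where the adjusted p is 0.05 or less (red higher, blue lower) and open where it is not. Called fibrillar chains and called proprotein convertases lie to the right of 0, and the 2 other family collagens to the left.

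The stated cell type was checked against its markers. All 8 myotube markers were expressed, such as Ttn (7019 ± 1132 CPM with horse serum and 8186 ± 1849 with STEM), Acta1 (3819 ± 637 and 3428 ± 218) and the fusion gene Mymk (165 ± 13.3 and 212 ± 15.2, SD, n = 6). Mymk was called higher (adjusted p = 0.000361), Myog (adjusted p = 0.00403) and Myh8 (adjusted p = 0.0357, edgeR) were called lower, and Myh3, Ckm, Acta1, Ttn and Des were not called (over all tested genes, 18.9% were called higher and 17.4% lower). The call of Myh8 was lost in limma-voom (adjusted p = 0.169), without the filter on low counts (0.0798) and without any 1 library other than library 6 (adjusted p from 0.0505 to 0.0745), while without library 6 Acta1 was also called lower (adjusted p = 0.000271). Their summed level was 15770, 18080, 16330, 16600, 17920 and 11330 CPM in horse serum libraries 1 to 6 and 17270, 16640, 15240, 14330, 16620 and 19940 CPM in STEM libraries 7 to 12. Library 6 was thus the lowest. On principal component 1 of the log2 CPM (44.2% of the variance) this control lay at 11.2, nearer to the STEM libraries (15.5 to 28.6) than to the other controls (-35.5 to -24.6). It stood apart from all other libraries on component 2 (-53.3 against 0.22 to 11.8, with 19.8% of the variance).

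Of 8 fibroblast and tendon cell markers, 4 passed the filter. Dpt (3.0 ± 0.91 to 6.36 ± 1.30 CPM, adjusted p = 0.000503) and Pdgfrb (123 ± 58.1 to 208 ± 32.0 CPM, SD, n = 6, adjusted p = 0.0324, edgeR) were called higher, as were 18.9% of all tested genes, and Pdgfra and Scx were not called. Pdgfrb lost its call without library 1, 2, 3, 4, 5, 9, 11 or 12 (adjusted p from 0.0502 to 0.0674) and without the filter (0.0827), and Pdgfra was called higher without library 6 (adjusted p = 2.48e-06). Thy1, Tcf21 and Tnmd had at most 1 count in any library and Mkx at most 6. Scx was the most abundant of the list in horse serum libraries 1 to 5, and Pdgfrb in library 6 and in every STEM library. The summed level of the list was 196, 243, 256, 251, 249 and 452 CPM in horse serum libraries 1 to 6 and 324, 324, 366, 345, 385 and 393 CPM in STEM libraries 7 to 12. In library 6, where this sum was higher than in any STEM library, Col23a1 was at 5.79 CPM and Col14a1 at 14.8 CPM, below and above all STEM libraries. Of 6 markers of undifferentiated and cycling myoblasts, Myf5, Mki67, Top2a and Cdk1 were called lower with STEM (log2 fold change between -0.65 and -0.42, adjusted p between 0.000434 and 0.00506), against 17.4% of all tested genes. Id3 was called higher (adjusted p = 0.0221), against 18.9% of all tested genes, and Pax7 was not called (adjusted p = 0.827, edgeR). The call of Id3 was lost without the filter (adjusted p = 0.0843). The summed level of these 6 markers, led by Top2a, was 818, 562, 561, 638, 648 and 855 CPM with horse serum and 452, 458, 454, 472, 500 and 431 CPM with STEM, so that the groups did not overlap. The part of these cell states in the levels of the collagen genes was not tested.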

How the data were processed

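Per the labels, the media were 4% horse serum and 4% STEM, with 6 libraries per medium. The C2C12 myotubes and the 24 h of exposure are taken from the study's methods. The study's methods give stranded libraries of total RNA from which ribosomal RNA was removed. The authors deposited raw read counts per Ensembl gene. The submitters' processing notes name GRCm38, STAR 2.7.3a, featureCounts 1.6.3 and DESeq2 1.26.0, while the annotation release and the strand setting of the counting are not given in the sources used here. Without a stated strand setting, reads of a gene and of an antisense gene that shares its exons cannot be told apart. No library was left out.

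Symbols, positions and union exon lengths came from GENCODE M21 (GRCm38), which held 55227 of the 55487 genes. The list entry Col21a1 matched no gene there. Counts were tested with edgeR 4.0.16 in R 4.3.3 (TMM, filterByExpr, robust quasi-likelihood fit, 2 groups, no covariate), with Benjamini-Hochberg adjustment over 14175 genes and calls at 0.05 or less. Standard errors were derived from the quasi-likelihood F statistic. Log2 CPM used a prior count of 2. DESeq2 1.42.0, limma-voom (limma 3.58.1), other scalings, other filters and the omission of each library were the alternatives. No 2 libraries of a group were as close as repeats of 1 library would be (chi-square per degree of freedom from 3.63 to 77.7 over 30 pairs). The pairs with horse serum library 6 lay between 64.3 and 77.7, and all other pairs between 3.63 and 20.8.

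The 7 genes, the related lists and the markers were chosen with earlier results of these data known. The genes named were the 7, the other collagens of both families, the markers, at most 3 called genes with the lowest p-values of each other list, and the 3 most correlated genes of each collagen gene. Genes named outside this rule are marked, or are given to account for uncalled or untested members of a list.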

Additional observations from a re-analysis of the deposited data

Results flagged for a closer look

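For the collagens, list genes and markers that the report names, the correlated genes not included, and where a gene had more than 3 counts in any library, 1 library stood apart from the other 5 (Dixon's gap test at the 95% level) in 19 of 116 groups of 6 libraries (16.4%), where chance flags about 1 in 20. Horse serum library 6 was that library in 14 of them. It was the lowest control for Col14a1 (14.8 CPM, against 24.6 to 29.7 in the other controls), Myh3 (647), Myh8 (79.8), Ckm (175), Acta1 (2553) and Chrng (220 CPM). It was the highest control for Pdgfra (24.8), Pdgfrb (238), Scx (186.5), Bgn (540.2), Furin (66.1), Pcsk7 (51.6), Adam9 (266) and Tln2 (206 CPM). In the same group library 1 was the highest for Itga2 (0.21 CPM, on 3 counts).

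In the STEM group, library 12 was the highest for Col19a1 (0.81 CPM, against 0.24 to 0.37 in the other 5), library 11 the lowest for Myf5 (11.4 CPM), library 10 the lowest for Col5a3 (370.2 CPM) and library 8 the highest for Mkx (0.059 CPM, on 1 count). For Col12a1, Col16a1, Col22a1, Col13a1, Col23a1 and Col25a1 no library stood apart by this test.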

How the results depend on the processing

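The 7 collagen genes were chosen with this comparison known, so their values under the alternatives are a description and no support. The log2 fold changes ranged from 3.48 to 3.59 for Col23a1, from -3.25 to -3.08 for Col14a1 and from -0.41 to -0.33 for Col12a1, while that of Col16a1, which was not called, lay on both sides of 0 (-0.02 to 0.06). That of Col25a1 (0.27) was 0.07 without horse serum library 6 and 0.41 without library 1. With single libraries left out, that of Col13a1 ranged from -0.50 (without library 6) to -0.27. The number of genes called in all was between 4459 (without library 2) and 7245 (without library 6). Without the filter on low counts, 1 of the other collagens of both families was called, of 6 tested, in place of 2 of 2 tested. With single libraries left out, the neuromuscular junction genes called numbered 2 to 7 and the myotendinous junction genes called 4 to 7, both highest without library 6. Of 936 recomputed fold changes of 52 named genes, 39 lost their call (11 of Pcsk7, 13 of Myh8, 9 of Pdgfrb, 4 of Chrnb1, and 1 each of Col17a1 and Id3), 3 gained one (Acta1, Pdgfra and Scara3 without library 6) and 0 called values changed sign, while uncalled values near 0, such as those of Col16a1 and Des, did. The cause was not tested. The other scalings moved the median log2 fold change of all genes by at most 0.019. No paired analysis was possible because the 2 groups share no library numbers. Depth limits Col22a1, Col13a1 and Col19a1, with at most 26 counts per library.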
